A study of Homo sapiens with 6 samples.

Results

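The genes described here are those of the human line TOV21G, an ovarian clear cell carcinoma line, compared after depletion of MEX3A by each of 2 short hairpin RNAs and with a scramble hairpin. They were all genes with a mean of at least 5 CPM (the count of a gene relative to the library total, scaled by trimmed mean of M values) over the 3 TOV21G libraries, which gave 11066 of 39282 genes in the files. The lowest mean inside this limit was 5.00131 CPM and the highest outside it 4.99974 CPM. A total of 21813 genes had a count in any TOV21G library. The libraries were 1 with sh-MEX3A#1 (hairpin 1), 1 with sh-MEX3A#2 (hairpin 2) and 1 with sh-Ctrl (the control). Lentivirus delivered all 3 hairpins, so the control cells were infected as well, and all were grown in MCDB 105 and Medium 199 with serum. The design text calls each depleted line a clone, and nothing in the labels says that the libraries stand for separate cultures. The hairpins are different reagents, and both were set against the same control library. The series holds a further 3 libraries of the teratocarcinoma line PA-1, which enter below only through the estimate of spread and 1 comparison between the lines.

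MEX3A belongs to a family of RNA-binding proteins that carry KH domains, which bind RNA, and a RING domain, the fold of many ubiquitin ligases. Such a protein can act on transcripts and can mark other proteins for degradation, and the title of the series names p53 degradation and ferroptosis. The transcription factor p53 induces genes of cell cycle arrest, repair and death. Its target p21 holds back the kinases that inactivate the RB family, and genes of replication and mitosis are then repressed through E2F sites and through the cell cycle homology region (CHR) of their promoters.

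MEX3A (chromosome 1, 156072013 to 156082465, RefSeq annotation of GRCh38.p14) had 39.5 CPM with hairpin 1 and 32.3 CPM with hairpin 2, against 76.8 CPM in the control. Both hairpin libraries were below the control, at 51.4% and 42.1% of it. The edgeR log2 fold change was -1.10 (SE 0.29, unadjusted p = 0.0118, adjusted p = 0.422 by edgeR's quasi-likelihood test). Among the other members of the family, MEX3C had 128 and 137 CPM with hairpins 1 and 2, against 86.1 CPM in the control. MEX3B had 13.4 and 9.77 CPM with the hairpins and 8.93 CPM in the control. MEX3D had 48.5 CPM with hairpin 1 and 17.3 CPM with hairpin 2, on either side of the control at 34.4 CPM. Of the 11066 genes, 325 lay further below the control than MEX3A by the smaller of the 2 hairpin differences.

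The expected counts summed to 14654628 with hairpin 1, 16012602 with hairpin 2 and 15694371 in the control, and 3 counts, the limit that a count of 0 allows, were 0.191 to 0.197 CPM. Such limits cover counting error only. Of 14 markers of ovarian clear cell carcinoma, 11 reached 5 CPM and none was at or under 3 counts in all 3 libraries, and the 14 summed to 4293 and 6862 CPM with the hairpins, against 10180 CPM in the control. The transcription factor PAX8, the member of this list with the hairpins on opposite sides, had 239 and 267 CPM, against 262 CPM, and 9 of the 11 were lower with both. Of 7 blood markers and 4 endothelial markers none reached 5 CPM, and all 7 blood markers were at or under 3 counts in each library. Of 10 teratocarcinoma markers 3 reached 5 CPM, and LIN28B, DPPA4, L1TD1, TDGF1 and NANOG had no count. Of 6 fibroblast markers COL1A1 and DCN reached 5 CPM, and the 6 summed to 112 and 199 CPM with the hairpins, against 17.5 CPM in the control, of which COL1A1 was 103, 184 and 8.86 CPM. The labels call the source ovarian surface epithelial cells. Of 6 epithelial markers EPCAM, KRT8 and KRT18 reached 5 CPM, and CDH1 stood at 1.10 and 2.16 CPM with the hairpins and 2.93 CPM in the control.

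With both hairpins 195 genes were at least 2-fold higher than the control (1.76% of 11066) and 283 at least 2-fold lower (2.56%). With deposited TPM in place of CPM the counts were 193 and 155. At 4-fold or more, 24 genes were higher and 15 lower with both, and at 8-fold 9 were higher and 2 lower. Of any size, 3251 genes (29.4%) were higher and 4015 (36.3%) lower with both hairpins. The hairpins lay on opposite sides of the control for 3800 genes (34.3%). Hairpin 2 stood further from the control than hairpin 1 for 6795 genes (61.4%). It put 765 genes 2-fold or more above the control (6.91%) and 1084 below (9.8%), and hairpin 1 gave 387 (3.5%) and 607 (5.49%). The median difference over all 11066 genes was -0.04 log2 CPM with hairpin 1 and -0.06 with hairpin 2. Since both differences use the same control library, a gene with an atypical control value is displaced with both.

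**Figure D1:**
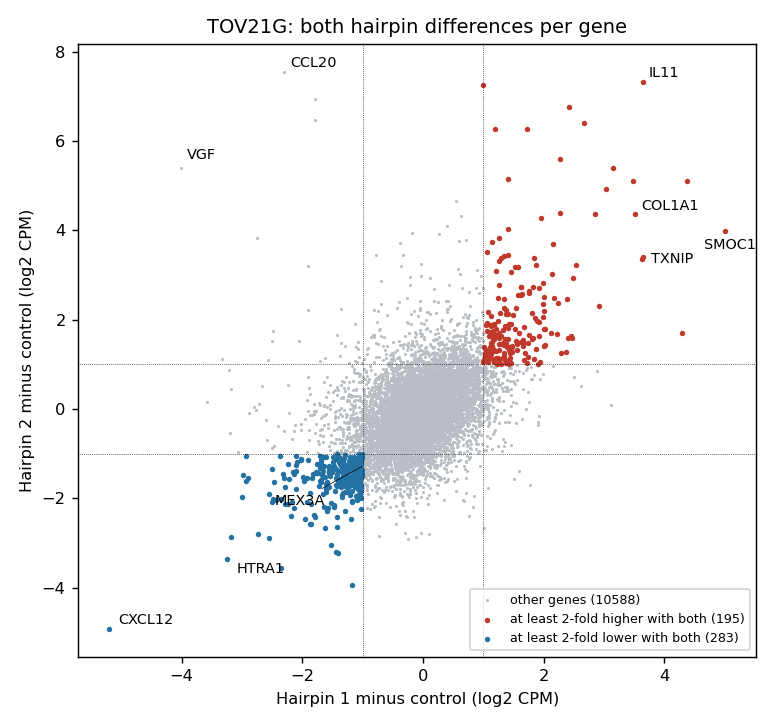
Difference in log2 CPM from the sh-Ctrl library for each of 11066 TOV21G genes, with hairpin 1 on the horizontal and hairpin 2 on the vertical axis; dotted lines mark 2-fold. The 195 genes at least 2-fold higher with both hairpins are red, the 283 at least 2-fold lower with both are blue, and both axes share the control.

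Across genes the edgeR quasi-likelihood test called 0 genes at an adjusted p under 0.05, and the smallest adjusted p was 0.386. At an unadjusted p under 0.05 it gave 467 of the 11066 genes higher (4.22%) and 739 lower (6.68%). DESeq2, which estimates the spread of each gene differently, called 84 of these genes higher (0.759%) and 113 lower (1.02%). All 84 and all 113 were also at least 2-fold from the control with both hairpins. A gene named below as called was called by DESeq2, and none of them passed edgeR after adjustment. In the test of the TOV21G difference minus the PA-1 difference, edgeR called 0 of the 16855 genes fitted at an adjusted p under 0.05 and gave 635 at an unadjusted p under 0.05.

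The long nuclear RNAs MALAT1 and NEAT1 were higher with both hairpins. MALAT1 had 9283 and 18020.1 CPM with hairpins 1 and 2, against 4236 CPM in the control, and NEAT1 had 1115 and 1043 CPM, against 354 CPM. DESeq2 called both. Their list of 23 long noncoding RNAs had 9 genes higher and 11 lower with both hairpins, with medians of -0.18 and -0.10 log2 CPM. Genes of cytosolic ribosomal proteins took 4.54% and 4.23% of the counts with the hairpins and 4.99% in the control. These values differed between the hairpin libraries and the control, as the gene groups below did, and their part in those results was not tested. In bulk RNA, fewer cells in a phase of the cell cycle and less RNA per cell cannot be told apart.

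Genes of cell division were mostly below the control. In 4 lists of mitotic genes with 85 members together, 82 were lower with both hairpins, 42 of them at least 2-fold, and the median difference was -1.02 log2 CPM with hairpin 1 and -1.26 with hairpin 2. Across all genes 36.3% were lower with both and 2.56% at least 2-fold. Over 8 lists of division, replication, nucleotide synthesis and recombination repair, 194 of 206 genes were lower with both hairpins, 68 at least 2-fold, and 3 were higher with both. DESeq2 called 38 of the 206 lower. The other 215 of the 283 genes at least 2-fold lower, and 75 of the 113 called by DESeq2, were outside these 8 lists.

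Among motor proteins and spindle factors 26 of 27 genes were lower with both hairpins, 16 at least 2-fold, and 10 were called. CKAP2L, a microtubule-binding protein of the spindle, had 10.3 and 11.2 CPM with hairpins 1 and 2, against 32.5 CPM in the control (log2 fold change -1.59, SE 0.25). KIF20A, a kinesin of the central spindle and cytokinesis, had 19.3 and 20.9 CPM with the hairpins and 52.99 CPM in the control. For both genes the 2 hairpin libraries lay close together and far below the control. KIF22, a kinesin that pushes chromosomes from the poles, had 26.4 and 21.8 CPM, against 67.0 CPM. DLGAP5, which stabilises spindle microtubules, had 29.5 and 27.0 CPM, against 72.1 CPM. The spindle protein SPAG5 (astrin) had 29.5 and 30.96 CPM, against 75.5 CPM, so that every one of these 5 genes had a control value more than 2-fold above both hairpins.

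The promoters of these genes were searched for the CHR and for CCAAT, whose part in the differences was not tested. The 4 members of the mitotic lists with the smallest edgeR p whose promoter window held a CHR are shown, each from 100 bases before to 30 after the start of the gene, in the RefSeq sequence of GRCh38.p14 and read along the gene's strand. Capitals mark matches to the CHR (TTTGAA or TTCGAA) and to CCAAT, the NF-Y motif, on either strand.
CKAP2L, chr2:112764580-112764709, minus strand: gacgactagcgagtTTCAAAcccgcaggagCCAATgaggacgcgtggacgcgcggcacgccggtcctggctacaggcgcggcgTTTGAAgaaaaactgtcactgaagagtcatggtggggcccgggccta
DLGAP5, chr14:55191556-55191685, minus strand: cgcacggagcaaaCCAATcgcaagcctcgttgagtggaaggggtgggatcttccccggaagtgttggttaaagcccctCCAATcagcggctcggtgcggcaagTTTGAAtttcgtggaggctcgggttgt
KIF22, chr16:29790651-29790780, plus strand: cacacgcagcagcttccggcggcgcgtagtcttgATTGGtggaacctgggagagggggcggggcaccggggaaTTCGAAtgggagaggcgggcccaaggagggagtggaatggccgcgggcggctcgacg
SPAG5, chr17:28598996-28599125, minus strand: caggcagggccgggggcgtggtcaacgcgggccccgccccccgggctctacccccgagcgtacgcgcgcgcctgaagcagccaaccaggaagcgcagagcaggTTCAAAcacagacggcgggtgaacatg
CKAP2L held a CHR whose first base lay 17 bases before the start, and a second, on the other strand, 86 bases before it. KIF22 held TTCGAA 27 bases before the start and CCAAT on the other strand at 66. In DLGAP5 and SPAG5 the CHR began at base 4 of the gene, in SPAG5 on the other strand. DLGAP5 held CCAAT at 87 and 22 bases before its start. The window of SPAG5 held no CCAAT.

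Over the full promoter windows of 300 bases (250 before the start and 50 after), 9086 of the 11066 genes (82.1%) had a RefSeq sequence. A CHR stood in 45 of 69 promoters of the mitotic genes (65.2%) and in 976 of 9086 promoters of all genes (10.7%). CCAAT stood in 72.5% of the mitotic promoters and 37.5% of all. Seen from the motif, 67 of the 976 genes with a CHR (6.86%) lay 2-fold or more below the control with both hairpins. Of 434 genes with a CHR and also CCAAT 40 did (9.22%), against 211 of 9086 genes with any promoter sequence (2.32%). Of 354 genes with an E2F motif (TTTGGCGC or TTTCCCGC, either strand) 23 were at least 2-fold lower (6.5%). Of 454 genes with TATAAA 21 were at least 2-fold higher (4.63%), against 148 of 9086 (1.63%). The mitotic genes CKAP2L, DLGAP5, KIF22 and SPAG5 are among the 67, so the counts by motif and by list are not independent. A match describes letters in a window and is no measurement of binding.

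Cyclins and kinases of mitosis had 16 of 17 genes lower with both hairpins, 8 at least 2-fold and 6 called. CCNA2, cyclin A, had 30.8 and 35.6 CPM with hairpins 1 and 2, against 85.9 CPM in the control. CDK1, the kinase that drives entry into mitosis, had 68.7 and 51.8 CPM, against 157 CPM. MELK, a kinase of proliferating cells, had 28.1 and 28.9 CPM, against 69.6 CPM. The spindle checkpoint and the anaphase promoting complex had all 17 genes lower with both hairpins, 10 at least 2-fold. CDC20, which activates that complex, had 33.2 and 22.2 CPM with the hairpins and 96.2 CPM in the control (log2 fold change -1.79, SE 0.33). PTTG1, securin, the inhibitor of separase, had 25.6 and 26.6 CPM, against 75.2 CPM. UBE2C, the ubiquitin-conjugating enzyme of the complex, had 16.2 and 15.0 CPM, against 44.4 CPM. DESeq2 called these 6 genes lower.

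At the kinetochore both hairpins lay below the control for 24 of 25 genes, for 9 of them by 2-fold or more, with list medians of -0.84 and -1.20 log2 CPM. SPC25, a subunit of the NDC80 complex that grips microtubules, had 6.88 and 4.33 CPM with the hairpins and 20.7 CPM in the control. HJURP, the chaperone that places CENP-A at centromeres, had 14.7 and 14.4 CPM, against 37.1 CPM. Both were called. Condensin and cohesin genes were more divided, with 17 of 21 lower and 2 higher with both hairpins. NCAPH of condensin I had 12.8 and 11.3 CPM, against 39.0 CPM (log2 fold change -1.70, SE 0.23), and the separase ESPL1 had 15.5 and 16.6 CPM, against 49.9 CPM.

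**Figure D2:**
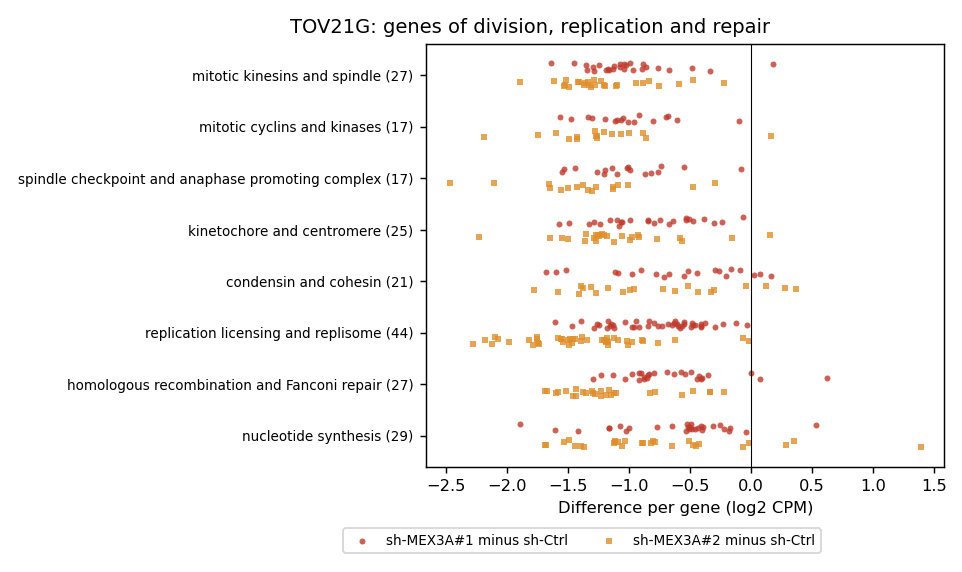
Difference in log2 CPM from sh-Ctrl for each gene of 8 lists of division, replication and repair in TOV21G, as circles for hairpin 1 and squares for hairpin 2, with the number of genes of each list in brackets. Points are spread vertically for legibility, and 194 of 206 genes lie left of 0 with both hairpins.

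Replication genes were lower without exception in their list. Both hairpins lay below the control for all 44 licensing and replisome genes, for 13 of them by 2-fold or more, with a median of -0.71 log2 CPM with hairpin 1 and -1.42 with hairpin 2. CDC45, part of the replicative helicase, had 6.04 and 5.31 CPM with the hairpins and 18.6 CPM in the control. CDT1, the licensing factor that loads the MCM helicase, had 8.37 and 5.05 CPM, against 23.4 CPM. For CDT1 hairpin 2 lay below hairpin 1, as it did for the list. MCM10 (28.1 and 20.2 CPM, against 67.6 CPM) and the polymerase delta subunit POLD3 (21.4 and 15.0 CPM, against 50.8 CPM) were also called. In the promoters of this list the E2F motif stood in 15 of 36 sequences (41.7%), against 3.9% over all genes, and the CHR in 1.

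Of 29 genes of nucleotide synthesis 26 were lower and 1 higher with both hairpins, 5 of them at least 2-fold lower. RRM2, the regulated subunit of ribonucleotide reductase, had 70.4 and 66.8 CPM with the hairpins, against 214 CPM in the control (log2 fold change -1.64, SE 0.22). The thymidine kinase TK1 had 12.9 and 12.3 CPM, against 34.6 CPM. In homologous recombination and Fanconi repair 25 of 27 genes were lower and none higher with both. FANCI had 42.6 and 36.5 CPM, against 104 CPM, and BRCA1 had 22.8 and 21.6 CPM, against 53.7 CPM, and both were called.

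The transcription factors that drive these programmes differed among themselves. Of 20 E2F, RB, MuvB and FOXM1 genes 13 were lower and 5 higher with both hairpins. E2F2 had 7.08 and 4.92 CPM with the hairpins and 27.9 CPM in the control (log2 fold change -2.21, SE 0.37). E2F1 had 5.91 and 4.92 CPM, against 16.3 CPM, and FOXM1, the factor of mitotic genes, had 32.2 and 30.4 CPM, against 79.7 CPM. These 3 activators were called lower. The repressor E2F8 had 6.30 and 6.76 CPM, against 19.7 CPM (DESeq2 adjusted p = 0.0555). The related repressor E2F7, named here after its values were seen, had 42.6 and 48.0 CPM with the hairpins and 21.4 CPM in the control, so that it lay on the other side.

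G1 regulators were divided, with 4 of 15 higher and 6 lower with both hairpins and list medians of 0.11 and -0.68 log2 CPM. CCND2, cyclin D2, had 420.0 and 345 CPM with the hairpins, against 111 CPM in the control, and was called higher (log2 fold change 1.78, SE 0.30). The CDK4 and CDK6 inhibitor CDKN2B had 5.06 and 8.46 CPM, against 1.66 CPM, and was not called. CCNE2 had 5.71 and 5.25 CPM, against 13.6 CPM.

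Histone chaperone and heterochromatin genes were mostly lower too. Of 24 histone chaperone and heterochromatin genes 18 were lower and 1 higher with both hairpins. ASF1B, a histone chaperone of dividing cells, had 14.8 and 12.1 CPM, against 38.6 CPM, and was called. HMGB1, an abundant chromatin protein, had 259.7 and 214 CPM with the hairpins and 484 CPM in the control. At the nuclear lamina, LMNB1, lamin B1, had 39.5 and 48.3 CPM, against 141 CPM (log2 fold change -1.68, SE 0.27). The giant nesprin SYNE1, which links the envelope to the cytoskeleton, had 204 and 203 CPM with the hairpins and 77.2 CPM in the control. LMNB1 was called lower and SYNE1 higher.

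Histone genes stood on the other side of the control, since both hairpins were above it for 5 of 9 genes, for 4 of them by 2-fold or more, and below it for 2. H2BC21 had 24.9 and 63.3 CPM with the hairpins, against 6.70 CPM in the control. H2BC4 had 56.7 CPM with hairpin 1 and 347 CPM with hairpin 2, against 21.2 CPM. H1-2 had 52.1 and 55.8 CPM, against 24.2 CPM. Most replication-dependent histone mRNAs lack a poly(A) tail, the libraries were selected for poly(A), and near-identical histone genes can share reads, so these levels are uncertain.

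Targets of p53 were higher than the control in most cases. Among targets of feedback, repair and metabolism 17 of 19 were higher with both hairpins and none lower, with medians of 0.76 and 0.85 log2 CPM. Over all genes 29.4% were higher with both. Only CD82, ACER2 and ASCC3 were called in this list. CD82, a tetraspanin, had 9.48 and 10.0 CPM with the hairpins and 2.30 CPM in the control (log2 fold change 2.08, SE 0.34). The alkaline ceramidase ACER2 had 93.7 and 87.6 CPM, against 27.5 CPM. ASCC3, a helicase of alkylation repair, had 237 and 265 CPM, against 115 CPM.

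Targets of growth arrest were higher with both hairpins in 9 of 12 cases and lower in 2. TP53INP1, which p53 induces under stress, had 266 and 316 CPM, against 123 CPM, and was called. The sestrin SESN1 had 96.3 and 94.8 CPM with the hairpins and 45.7 CPM in the control, and the antiproliferative BTG2 had 154 and 153 CPM, against 79.6 CPM. For these genes the hairpins agreed closely in level. GADD45A, a gene of growth arrest after DNA damage, had 43.8 and 85.0 CPM, against 24.0 CPM, so hairpin 2 stood apart. Targets of cell death were higher in 9 of 12 cases and lower in none, and none was called. BBC3, the BH3-only protein PUMA, had 17.3 and 22.1 CPM, against 7.78 CPM. AEN, an exonuclease of apoptosis, had 96.5 and 132 CPM, against 59.4 CPM.

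Collagens were mostly above the control, and other matrix genes were divided. Of 13 collagens 8 were higher, 1 lower and 4 on opposite sides of the control, with medians of 0.82 and 1.57 log2 CPM, where 29.4% of all genes were higher and 36.3% lower with both hairpins. COL1A1, the main chain of type I collagen (chromosome 17, 50184101 to 50201631), had 103 and 184 CPM with hairpins 1 and 2, against 8.86 CPM in the control (log2 fold change 4.02, SE 0.56). Its partner chain COL1A2 had 364 and 318 CPM, against 179 CPM, a smaller difference of 1.02 and 0.83 log2 CPM. COL5A1, of the fibril-regulating type V collagen, had 36.5 and 68.9 CPM, against 10.2 CPM. DESeq2 called COL1A1 and COL5A1. The basement membrane chains COL4A1 (856 and 1782 CPM, against 480 CPM) and COL4A2 (636 and 1386 CPM, against 358 CPM) were higher with both and not called.

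Of 20 matrix glycoproteins and proteoglycans 10 were higher, 3 lower and 7 on opposite sides, against 29.4%, 36.3% and 34.3% of all genes. TGFBI, an adhesion protein induced by TGF-beta, had 94.4 and 270.5 CPM with the hairpins and 39.2 CPM in the control, and was called. FBN1, fibrillin, had 49.7 CPM with hairpin 1 and 444 CPM with hairpin 2, against 32.8 CPM, so that most of its difference came with hairpin 2. FBLN1, fibulin, was called on the other side, with 4.02 and 6.43 CPM, against 19.3 CPM. Laminins, of the basement membrane, had 2 of 9 genes higher, 4 lower and 3 on opposite sides, and LAMC1, named after its values were seen, had 2127 and 2156 CPM with the hairpins, against 3940 CPM in the control. Of 22 matrix proteases and inhibitors 10 were higher, 3 lower and 9 on opposite sides, with genes at both ends of the ranking. TFPI2, an inhibitor of serine proteases in the matrix (chromosome 7, 93885396 to 93890753), had 511 and 432 CPM with the hairpins and 40.4 CPM in the control (log2 fold change 3.54, SE 0.71). HTRA1, a secreted serine protease (chromosome 10, 122461553 to 122514907), had 24.0 and 22.0 CPM, against 228 CPM (log2 fold change -3.31, SE 0.40). The hairpins agreed closely for both genes.

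In TGF-beta and BMP signalling 14 of 22 genes were higher, 1 lower and 7 on opposite sides, where 29.4% of all genes were higher and 36.3% lower with both hairpins. The list medians were 0.31 and 0.35 log2 CPM. ID3, a dominant negative partner of helix-loop-helix factors that BMP signals induce, had 389 and 409.7 CPM with the hairpins, against 74.1 CPM in the control (log2 fold change 2.43, SE 0.34). SMAD7, the inhibitory SMAD, had 44.5 and 67.5 CPM, against 15.7 CPM. These 2 were called. INHBA, the activin A chain, had 21.7 and 28.6 CPM, against 9.56 CPM, and ID1 had 189 and 262 CPM, against 111 CPM. Of 18 YAP and TEAD targets 13 were higher and 3 lower with both, with medians of 0.51 and 0.92 log2 CPM. The kinase NUAK2 had 133 and 138 CPM, against 55.3 CPM, and was called. CCN2, a matricellular protein, had 79.5 and 253 CPM, against 41.6 CPM, and the coactivator gene WWTR1 (TAZ) itself had 169 and 162 CPM with the hairpins and 363 CPM in the control.

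Of 24 actin and contractile genes 13 were higher with both hairpins, 4 lower and 7 on opposite sides, with medians of 0.27 and 0.16 log2 CPM. Over all genes 29.4% were higher with both, 36.3% lower and 34.3% on opposite sides. FLNC, a filamin that cross-links actin, had 64.3 and 325 CPM, against 16.5 CPM, and was called. ACTA2, smooth muscle actin, had 141 and 76.6 CPM, against 36.9 CPM. Vimentin (VIM), the intermediate filament of mesenchymal cells, lay on the other side, with 1020.1 and 2279 CPM with the hairpins and 5790 CPM in the control. It was not called (DESeq2 adjusted p = 0.0818). The keratins of simple epithelia were higher, KRT8 with 109 and 97.0 CPM, against 58.9 CPM, and KRT18 with 137 and 120 CPM, against 79.8 CPM, neither of them called.

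Secreted signals had the widest gap between the hairpins' medians of all lists. For 10 of 18 cytokines and chemokines both hairpins were above the control and for 2 both were below, against 29.4% and 36.3% of all genes. The list had a median of 0.13 log2 CPM with hairpin 1 and 2.08 with hairpin 2. The range was -5.20 to 3.64 with hairpin 1 and -4.92 to 7.55 with hairpin 2. IL11, HBEGF, CXCL8, AREG and CCL20 had under 5 CPM with hairpin 1 and in the control. They reached the limit of 5 CPM through hairpin 2 alone, so the gap between the medians rests partly on that limit. IL11, a cytokine of the IL-6 family, had 4.67 CPM with hairpin 1 and 61.9 CPM with hairpin 2, against 0.255 CPM in the control. CSF1, the macrophage growth factor, had 35.8 and 65.1 CPM, against 13.8 CPM, and IL32 had 29.9 and 124 CPM, against 11.2 CPM. DESeq2 called these 3 higher. HBEGF, a ligand of the EGF receptor, had 2.66 CPM with hairpin 1 and 94.3 CPM with hairpin 2, against 1.08 CPM. It was not called.

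CXCL12, the chemokine that binds CXCR4 (chromosome 10, 44370165 to 44385097), stood furthest below the control of all 11066 genes by the smaller hairpin difference. It had 0.519 and 0.656 CPM with the hairpins, against 23.7 CPM in the control (log2 fold change -5.32, SE 0.48, DESeq2 adjusted p = 1.8e-05). Integrins, the matrix receptors, had medians of -0.39 with hairpin 1 and 1.39 log2 CPM with hairpin 2, on opposite sides of the control. ITGA5, the fibronectin receptor chain, had 98.5 and 214 CPM with the hairpins and 38.6 CPM in the control and was the member called. ITGAV had 697 and 2469 CPM, against 521 CPM, and ITGA3 had 762 and 1930.4 CPM, against 738 CPM. Of 13 integrins 5 were higher with both hairpins, none lower and 8 on opposite sides, against 29.4%, 36.3% and 34.3% of all genes.

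**Figure D3:**
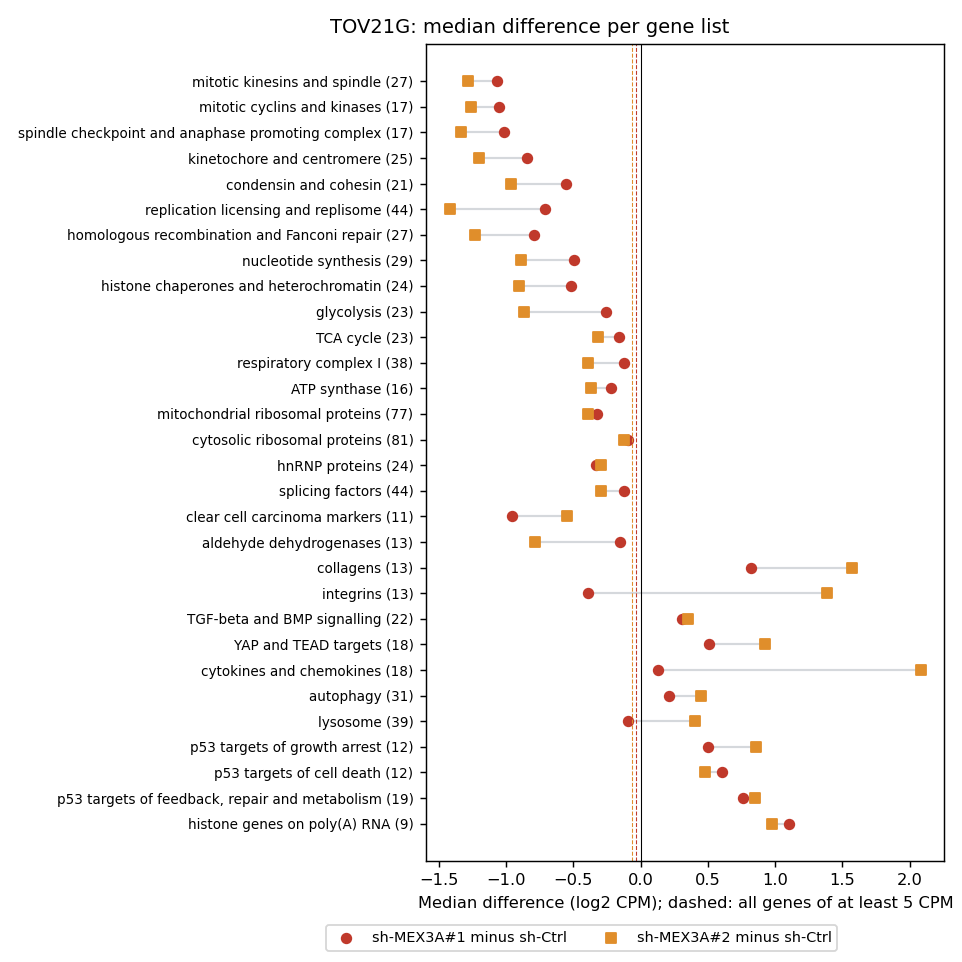
Median difference in log2 CPM from sh-Ctrl over the genes of 30 lists in TOV21G, as circles for hairpin 1 and squares for hairpin 2, with the number of genes in brackets. Dashed lines mark the medians of all 11066 genes (-0.04 and -0.06); the division and replication lists lie left of these with both hairpins, and the circles and squares of integrins and cytokines lie far apart.

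The markers of clear cell carcinoma were lower as a list, since both hairpins were below the control for 9 of 11 genes and above it for 1. The list medians were -0.96 and -0.55 log2 CPM. Both hairpins were below the control for 36.3% of all genes and above it for 29.4%. Annexin A4 (ANXA4) had 194 CPM with each hairpin and 638 CPM in the control (log2 fold change -1.72, SE 0.22). FXYD2, a regulator of the sodium pump, had 13.4 and 19.5 CPM, against 65.4 CPM. GPX3, the secreted glutathione peroxidase, had 30.8 and 18.8 CPM, against 113 CPM. These 3 were called lower. The phosphoprotein osteopontin (SPP1) had 1599.8 and 3676 CPM with the hairpins and 5908 CPM in the control. TFPI2, given above, is on the same list and was called higher.

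Glycolysis genes were lower with both hairpins in 17 of 23 cases and higher in 1, against 36.3% and 29.4% of all genes. The list had a median of -0.26 log2 CPM with hairpin 1 and -0.87 with hairpin 2. HK2, a hexokinase, had 62.1 and 62.8 CPM, against 144 CPM, and was called. SLC2A1, the glucose transporter GLUT1, had 51.1 and 71.2 CPM with the hairpins and 142 CPM in the control. ENO1, enolase, had 995 and 958 CPM, against 1825 CPM. The lactate exporter SLC16A3 was the exception, with 34.9 and 39.6 CPM with the hairpins and 9.56 CPM in the control, and was called higher. TXNIP, an arrestin that binds thioredoxin and restrains glucose uptake (chromosome 1, 145992435 to 145996579), had 111 and 92.2 CPM, against 8.80 CPM (log2 fold change 3.53, SE 0.43). Its relative ARRDC4 had 18.6 and 23.2 CPM, against 4.02 CPM, and both were called higher.

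Mitochondrial genes were mostly below the control, where 36.3% of all genes were lower and 29.4% higher with both hairpins. Of 77 mitochondrial ribosomal protein genes 59 were lower and 4 higher with both hairpins, with medians of -0.33 and -0.39 log2 CPM, and none was 2-fold. With TPM the mean of the 2 medians was -0.27, against -0.36 with CPM. Respiratory complex I had 22 of 38 genes lower and 4 higher, with medians of -0.12 and -0.39 log2 CPM, and the TCA cycle 15 of 23 lower and 2 higher, with medians of -0.16 and -0.31. ATP5F1C, the gamma subunit of ATP synthase, stood apart with 81.6 and 68.5 CPM with the hairpins and 218 CPM in the control, and was called (log2 fold change -1.54, SE 0.24). HSD17B10, a mitochondrial dehydrogenase that is also part of ribonuclease P, was called in the other direction, with 55.0 and 70.7 CPM, against 13.7 CPM (log2 fold change 2.20, SE 0.31).

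Lists of ferroptosis suppression, NRF2 targets and aldehyde dehydrogenases had more genes below than above the control, and those of lipid peroxidation and iron handling did not. Over all genes 36.3% were lower and 29.4% higher with both hairpins, and DESeq2 called 1.02% lower and 0.759% higher. Of 12 genes of cystine, glutathione and GPX4 6 were lower and none higher with both hairpins, and of 15 genes of ubiquinone and other radical traps 11 were lower and 1 higher, and none of either list was called. The medians were -0.08 and -0.36 log2 CPM for the first list and -0.34 and -0.39 for the radical traps. GPX4, the lipid peroxide reductase, had 96.8 and 111 CPM with the hairpins and 141 CPM in the control. The cystine transporter SLC7A11, singled out after its values were seen, had 34.4 CPM with hairpin 1 and 14.1 CPM with hairpin 2, on either side of 17.5 CPM. PDSS1, of ubiquinone synthesis, had 15.4 and 11.2 CPM, against 24.8 CPM. SAT1, a polyamine acetyltransferase, had 1050.1 and 730.0 CPM, against 520 CPM, and was not called. In its list of 8 lipid peroxidation enzymes 2 were higher with both hairpins, 1 lower and 5 on opposite sides. Of 15 iron handling genes 5 were higher, 3 lower and 7 on opposite sides, with medians of 0.11 and 0.24 log2 CPM. Among 15 NRF2 targets 9 were lower and 2 higher (medians of -0.19 and -0.42 log2 CPM), and the quinone reductase NQO1 had 268 and 183 CPM, against 670.4 CPM, and was called. Of 13 aldehyde dehydrogenases 9 were lower and 1 higher (medians of -0.15 and -0.79 log2 CPM), and ALDH1A1, a retinaldehyde dehydrogenase, had 113 and 68.6 CPM with the hairpins and 408 CPM in the control and was called (log2 fold change -2.17, SE 0.34).

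Genes of RNA and protein synthesis also had more members below than above the control, against 36.3% lower and 29.4% higher over all genes. Of 24 hnRNP genes 18 were lower and 1 higher with both hairpins, with HNRNPA1 at 873 and 892 CPM, against 1391 CPM. Of 44 splicing factors 29 were lower and 7 higher. Of 42 translation factors 21 were lower and 2 higher, and EIF4EBP2, a brake on cap-dependent translation, was called higher, with 570.3 and 689.8 CPM, against 198 CPM. Of 81 cytosolic ribosomal proteins 40 were lower and 12 higher, with medians of -0.09 and -0.13 log2 CPM. With TPM the mean of these 2 medians was -0.0045, against -0.11 with CPM, so their distance from the control rested on the scaling. Autophagy genes were higher in 16 of 31 cases, lower in 2 and on opposite sides in 13, and ATG9A, the membrane protein that seeds autophagosomes, was called, with 84.8 and 108 CPM with the hairpins and 34.7 CPM in the control. EIF2AK3 (PERK), the endoplasmic reticulum stress kinase, had 73.0 and 61.1 CPM, against 28.4 CPM, and was called. In its list of 23 stress and folding genes 9 were higher with both hairpins, 2 lower and 12 on opposite sides. The medians of that list were -0.12 and 0.57 log2 CPM, and 1 gene was called higher. Of 381 zinc finger genes with ZNF symbols 182 were higher and 73 lower with both hairpins, with medians of 0.20 and 0.11 log2 CPM.

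The 30 genes furthest from the control with both hairpins were ranked by the smaller of their 2 differences. The highest 15 included HSPB8, SMOC1, IL11, COL1A1, TFPI2, TXNIP, IGDCC4, TLR6, FLRT2, ANKRD1, CSRNP1, GLIPR1, CHST15 and ID3, and of these all but GLIPR1 were called. Several were near absent from the control, and entered at 5 CPM only through the hairpin libraries. Of the 195 genes at least 2-fold higher, 83 had under 5 CPM in the control and 3 were at or under 3 counts there. HSPB8, a small heat shock protein, had 6.56 and 10.9 CPM with the hairpins and 0.191 CPM, which is 3 counts, in the control. The ratio of CPM was 34.3 for hairpin 1 (95% counting interval, exact binomial, 11.4 to 169) and 56.9 for hairpin 2 (19.1 to 279). SMOC1, a calcium-binding matrix protein, had 14.3 and 6.95 CPM, against 0.319 CPM (log2 fold change 5.03, SE 0.72). ANKRD1, a target of YAP, had 2.73 CPM with hairpin 1 and 37.9 CPM with hairpin 2, against 0.319 CPM. The sulfotransferase CHST15 had 0.909 and 20.8 CPM, against 0.0638 CPM, or 1 count, and reached the limit of 5 CPM through hairpin 2 alone.

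The lowest 15 included CXCL12, HTRA1, CCN3, FAM149A, RASSF6, PRODH, CYS1, TFCP2L1, CHDH, IQCK, C2CD4A, SNTB1, PCSK1 and GPC3, and of these all but C2CD4A were called. None of the 15 belonged to the division or replication lists. Of the 283 genes at least 2-fold lower, 29 had under 5 CPM in both hairpin libraries. FAM149A (chromosome 4, 186104704 to 186175337) had the smallest edgeR p, with 4.74 and 4.53 CPM with the hairpins and 32.2 CPM in the control (log2 fold change -2.80, SE 0.31, unadjusted p = 0.000224). TFCP2L1, a transcription factor of epithelia and naive stem cells, had 28.9 and 27.5 CPM, against 128 CPM. PRODH, the proline dehydrogenase of mitochondria, had 15.9 and 6.82 CPM, against 81.6 CPM. CHDH, the choline dehydrogenase, had 8.05 and 8.99 CPM, against 39.7 CPM. GPC3, a heparan sulfate proteoglycan, had 3.77 and 5.31 CPM, against 21.7 CPM, and the prohormone convertase PCSK1 had 11.6 and 14.7 CPM, against 59.7 CPM. In most of these genes the hairpins lay within a narrow range of each other.

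**Figure D4:**
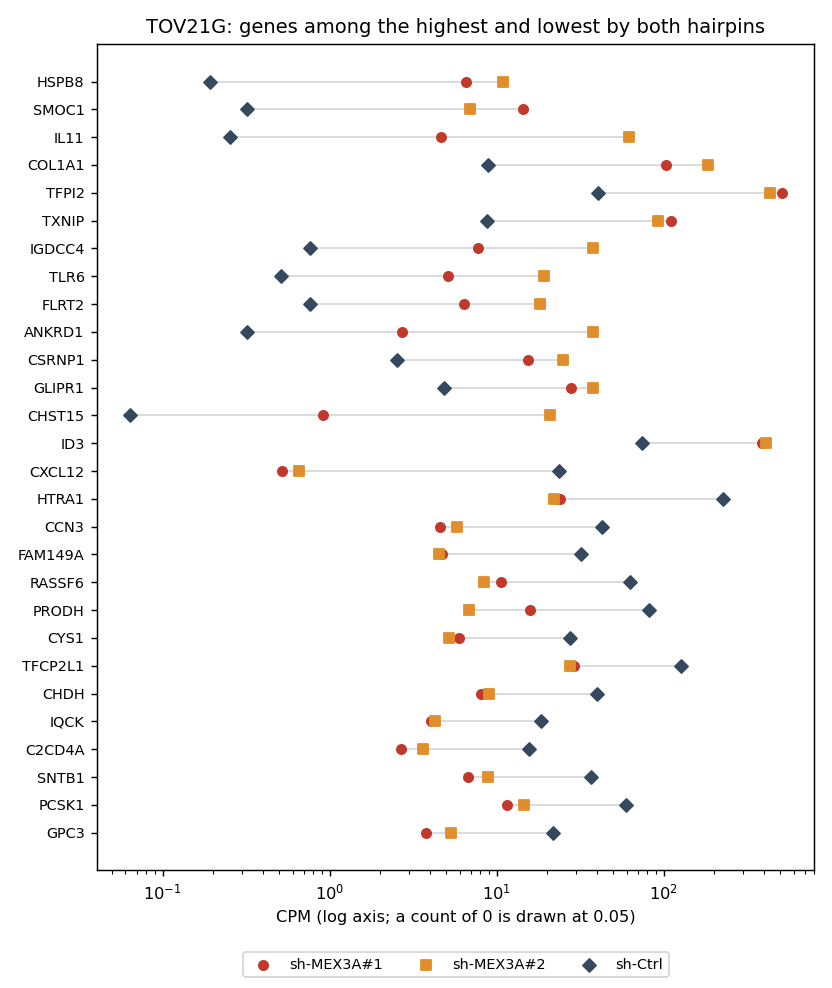
CPM on a log axis in the sh-MEX3A#1 (circle), sh-MEX3A#2 (square) and sh-Ctrl (diamond) library for genes among the 15 highest and 15 lowest in TOV21G by the smaller of the 2 hairpin differences, 14 of each. The hairpins lie close together for CXCL12, HTRA1, TXNIP and ID3 and far apart for IL11, ANKRD1 and CHST15.

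Further called genes belonged to other lists. The Wnt antagonist DKK1 had 48.9 and 88.0 CPM with the hairpins and 273 CPM in the control. PSAT1, of serine synthesis, had 142 and 128 CPM, against 303 CPM. The phosphatase DUSP1, an immediate early brake on MAP kinases, had 132 and 251 CPM, against 42.8 CPM, and DUSP8 had 10.3 and 19.0 CPM, against 2.23 CPM. Of 20 immediate early genes 11 were higher and 3 lower with both hairpins. TAPBP (tapasin), which loads peptides on MHC class I, had 165 and 224 CPM, against 65.9 CPM, and 8 of 15 genes of that pathway were higher and 2 lower. SEMA7A, a membrane-anchored semaphorin, had 19.2 and 56.4 CPM, against 4.21 CPM.

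For 33 of the 3800 genes with the hairpins on opposite sides, both differences were at least 2-fold, with hairpin 2 higher and hairpin 1 lower for 28 and the reverse for 5. The 8 widest all had hairpin 2 above and hairpin 1 below the control. Of these, CCL20, MMP1, PTGS1 and ZNF705A had under 5 CPM with hairpin 1 and in the control. They reached the limit of 5 CPM through hairpin 2 alone, so a high value with hairpin 2 was a condition of their entry. VGF, a secreted neuroendocrine peptide precursor (chromosome 7, 101162509 to 101169952), had 1.10 CPM with hairpin 1 and 844 CPM with hairpin 2, against 19.8 CPM in the control. Its edgeR log2 fold change of 4.41 had an SE of 3.27. The chemokine CCL20 had no count with hairpin 1 and 119.98 CPM with hairpin 2, against 0.510 CPM, or 8 counts, in the control. Set at the 3-count limit, hairpin 1 lay 2.62-fold below that control value, whose own counting error is left out. The collagenase MMP1 had no count with hairpin 1 and 39.6 CPM with hairpin 2, against 0.319 CPM. By the same limit MMP1 and ZNF705A, with 5 control counts each, lay 1.64-fold below. Their 2-fold differences with hairpin 1 are therefore uncertain. PTGS1, cyclooxygenase 1, had 0.260 and 37.4 CPM, against 2.49 CPM. EEF1A2, the elongation factor of muscle and neurons, had 1.82 and 66.5 CPM, against 7.14 CPM. KCNK3, a potassium channel, and IL4I1, an amino acid oxidase, followed, with 18.04 CPM for KCNK3 and 12.005 CPM for IL4I1 with hairpin 2. ZNF705A (0 and 55.0 CPM with the hairpins, against 0.319 CPM) has near-identical copies that can share reads and is uncertain. None of the 8 was called.

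**Figure D5:**
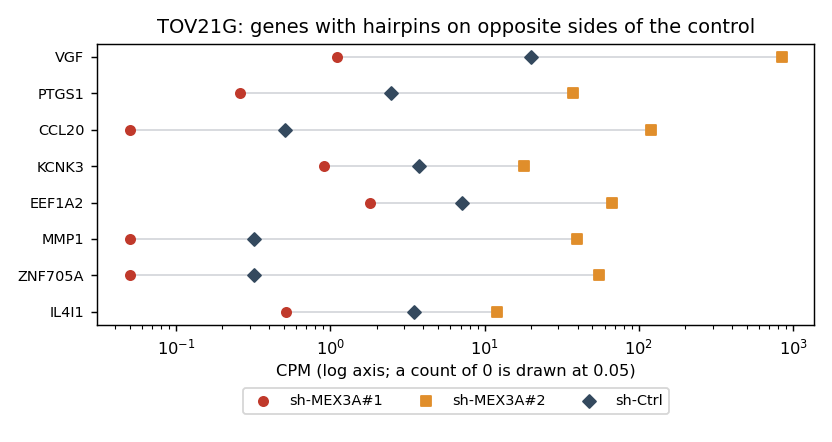
CPM on a log axis in the sh-MEX3A#1 (circle), sh-MEX3A#2 (square) and sh-Ctrl (diamond) library for the 8 TOV21G genes with the widest differences on opposite sides of the control. Hairpin 1 is at the left and hairpin 2 at the right of the control for every gene, and values of 0 are drawn at 0.05.

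Among the properties of the genes, the shares differed by level and by length. In 4 bins of equal size by mean CPM, from lowest to highest, the share at least 2-fold lower with both hairpins was 4.52%, 2.71%, 1.81% and 1.19%, and the share at least 2-fold higher was 3.25%, 1.19%, 1.16% and 1.45%. In 4 such bins by deposited gene length, from shortest to longest, the share higher was 1.16%, 1.77%, 1.63% and 2.49%, and the median difference with hairpin 1 was -0.16, -0.03, 0.02 and 0.03 log2 CPM. Of 212 long noncoding RNA genes 11 lay 2-fold or more above the control (5.19%) and 2 below it, each with both hairpins. On chromosome 2, 35 of 741 genes were at least 2-fold lower (4.72%), the largest share of any chromosome, and on chromosome 21 none of 114 was. These shares carry no test. The bins by level use the mean of the same 3 libraries that give the differences, so the 2 are not independent. Of the 195 genes at least 2-fold higher, 83 had under 5 CPM in the control. Of the 283 at least 2-fold lower, 29 had under 5 CPM in both hairpin libraries.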

How the data were processed

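Per the labels, total RNA of lentivirally transduced TOV21G and PA-1 cells was made into poly(A)-selected, dUTP-stranded libraries. The submitters' processing notes name cutadapt 1.12, STAR 2.5.3a, RSEM 1.2.31, edgeR 3.26.8 and hg38, and the strand setting of the counting is not given in the sources used here. Per the file headers, the authors deposited RSEM expected counts (estimated counts per gene), TPM and gene lengths. Antisense and overlapping genes and near-identical copies are therefore uncertain.

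For the tests each expected count was rounded to an integer, and TMM scaling was done within each line. Differences in log2 CPM used a prior count of 2. The main test was edgeR 4.0.16 in R 4.3.3, a quasi-likelihood F test over all 6 libraries with 1 mean per group, on 16855 genes kept by filterByExpr, all 11066 genes described here among them, with Benjamini-Hochberg adjustment at 0.05. It has 2 residual degrees of freedom, and the single control was assumed to vary as the hairpin libraries did (biological coefficient of variation 0.295). The SE was taken as the size of the log2 fold change over the root of its F value. The 2 hairpins of a line served as the replicates of its depleted group, so the spread is the difference between reagents within each line. Each p-value rests only on that spread, which may also hold technical variation. DESeq2 1.42.0 was an alternative. Promoters came from RefSeq (GRCh38.p14), the build of hg38, matched by symbol.

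Named genes were MEX3A, the 15 per direction with the largest smaller-of-2 difference, the 8 widest on opposite sides, the 5 per direction with the smallest edgeR p, and up to 5 per list with members at least 2-fold the other way. A few of these are not reported here. Genes outside this rule are given as markers or as chosen after their values were seen. The genes and 87 lists were chosen with earlier results of these data known, and lists share members.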

Additional observations from a re-analysis of the deposited data

How the results depend on the processing

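The count of genes passing edgeR was 0 in each direction, also with TMM over all 6 libraries, DESeq2's size factors, library totals, no filter on low counts and TOV21G alone. DESeq2 called 91 genes higher and 124 lower of all genes fitted, 13587 of which had an adjusted p. A replicate block on the hairpin number gave 28 and 42. The hairpin numbers mark reagents, and hairpin 2 minus hairpin 1 correlated between the lines at r = 0.44 over 11558 genes. Leaving out 1 library gave 0 to 435 genes higher and 0 to 517 lower. The highest counts came without TOV21G hairpin 1, where the spread came from PA-1 (biological coefficient of variation 0.163) and the lone TOV21G hairpin was assumed to vary likewise, and without any other hairpin the counts were 0.

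Genes at least 2-fold higher with both hairpins numbered 418 at 1 CPM or more, and 387 to 765 with a single hairpin. Genes at least 2-fold lower numbered 155 with deposited TPM and 607 to 1084 with a single hairpin. With hairpin 1, 830 genes were 2-fold higher at 1 CPM or more and 327 lower with TPM, and with hairpin 2, 1292 were higher at 1 CPM or more. TPM moved the median of all genes by 0.16 with hairpin 1 and -0.01 with hairpin 2 (log2), and the cause was not tested. Of 85 list medians 6 changed sign with TPM and 20 moved by more than the SD between the hairpins, and 9 changed sign without TOV21G hairpin 1 and 14 without hairpin 2. Of 442 named genes, none of which passed edgeR, 105 were called by DESeq2 and 45 with the replicate block. These are counts of calls only. For genes with the hairpins on opposite sides, such as VGF, the sign of the difference depends on which hairpin is kept. At this depth 3 counts were about 0.2 CPM, and genes near it carry wide counting intervals.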

Other observations

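Further lists in TOV21G had more genes below than above the control. Ribosome biogenesis genes were below the control with both hairpins for 21 of 32 genes and above it for 2, with fibrillarin (FBL), the methyltransferase of ribosomal RNA, at 98.2 and 54.2 CPM with hairpins 1 and 2, against 204 CPM in the control. Nuclear pores and karyopherins were below it for 23 of 40 genes and above it for 6, with medians of -0.27 and -0.39 log2 CPM, led by NUP210 (105 and 76.1 CPM, against 191 CPM). Cholesterol synthesis and uptake were below it for 11 of 24 genes, above it for 1 and on opposite sides for 12, with medians of -0.41 and -0.32 log2 CPM, led by the sterol isomerase EBP (10.5 and 9.38 CPM, against 19.8 CPM). Over all genes the shares were 36.3% below and 29.4% above with both hairpins, and none of these named genes was called by edgeR or DESeq2.

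Lysosome genes were divided by hairpin. For 16 of 39 both hairpins were above the control, for 6 both were below and for 17 they lay on opposite sides, with the proton pump subunit ATP6V0D1 at 75.5 and 68.0 CPM with the hairpins and 38.4 CPM in the control. The list medians were -0.09 log2 CPM with hairpin 1 and 0.40 with hairpin 2. For 18 of 35 proteasome genes both hairpins were above and for 5 below, none by 2-fold, with medians of 0.03 and 0.19 log2 CPM. Complement component C3 had 304 and 236 CPM with the hairpins and 114 CPM in the control. Interferon-stimulated genes were divided, with 10 of 26 above and 7 below with both hairpins. The Wnt receptor FZD4 had 148 and 90.8 CPM with the hairpins and 344 CPM in the control. DESeq2 called none of these genes either.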
